A study of Homo sapiens with 12 samples.

Results

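The p53 target genes described here are 10 genes that the tumour suppressor p53 is known to activate: MDM2, GDF15, TP53I3, BAX, FAS, TNFRSF10B, ZMAT3, RRM2B, TIGAR and FDXR. They were chosen by gene symbol in the probe annotation of the series. Of the 10, 9 had a named probe set, 1 each, and FDXR had none and is named only. All 9 were kept in the test, among 12758 genes kept of 17687 with a named probe set. RNA was measured on 12 whole-transcript arrays in derivatives of MCF-10A, a line of breast epithelial cells from human tissue that form no tumours. The groups were co-cultures of a HER2 L755S line with a PIK3CA E545K line, the HER2 L755S line alone, and the PIK3CA E545K line alone, with 4 samples each. HER2 L755S is a kinase-domain change in the receptor tyrosine kinase HER2, and PIK3CA E545K alters the subunit of PI3K that phosphorylates lipids. All were kept in physiologic EGF without any other agent and harvested after 7 to 14 days, when the co-cultures held about 75% HER2-mutant and 25% PIK3CA-mutant cells by droplet digital PCR. The labels name 1 line per mutation, and unmutated MCF-10A cells were not analysed here, so which of the lines moved is not known. RNA was extracted in quadruplicate, and the labels do not say whether from separate cultures, so p-values measure the spread between these samples, which may be technical. The 3 comparisons between groups share their samples and are not independent.

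p53 is a transcription factor that is held at a low level by MDM2, a ubiquitin ligase that is itself a p53 target and so closes a feedback loop. When DNA damage or another stress stabilises p53, it binds paired half-sites near its target genes and raises transcripts that stop the cell cycle, repair DNA, adjust metabolism or lead to cell death. Growth signalling is known to alter both p53 stability and several of its targets by other routes. GDF15 and TNFRSF10B, for instance, are also induced by ATF4 and CHOP, the transcription factors of the integrated stress response.

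Promoter sequences are shown for MDM2, FAS and GDF15, in which a window on file held a match to a p53 site. This lets the match be seen beside the gene's response. RefSeq windows on GRCh38.p14, running from 250 bases before to 50 bases after a transcription start, were on file for 8 of the 10 members. A p53 full site was searched as 2 p53 half-sites of 10 bases each, 0 to 13 bases apart, with C and G fixed at the 4th and 7th base of each half-site and at most 3 mismatches elsewhere. The p53 half-site reads the same on both strands, so 1 scan covers both. Capitals mark the match with the fewest mismatches in that window, so any further p53 element stays in lower case.
MDM2, chr12:68808767-68809066, plus strand: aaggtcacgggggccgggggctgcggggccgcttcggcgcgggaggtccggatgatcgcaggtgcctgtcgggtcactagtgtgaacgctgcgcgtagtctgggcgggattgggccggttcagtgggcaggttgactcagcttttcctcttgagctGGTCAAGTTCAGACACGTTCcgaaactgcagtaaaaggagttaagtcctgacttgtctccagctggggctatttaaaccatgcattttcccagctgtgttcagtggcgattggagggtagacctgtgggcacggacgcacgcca
FAS, chr10:88991181-88991480, plus strand: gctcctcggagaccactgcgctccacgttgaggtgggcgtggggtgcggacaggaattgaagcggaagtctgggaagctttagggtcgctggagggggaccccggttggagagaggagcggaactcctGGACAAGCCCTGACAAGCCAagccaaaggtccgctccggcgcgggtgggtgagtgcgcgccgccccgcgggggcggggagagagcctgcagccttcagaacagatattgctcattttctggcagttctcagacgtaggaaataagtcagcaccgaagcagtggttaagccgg
GDF15, chr19:18385908-18386207, plus strand: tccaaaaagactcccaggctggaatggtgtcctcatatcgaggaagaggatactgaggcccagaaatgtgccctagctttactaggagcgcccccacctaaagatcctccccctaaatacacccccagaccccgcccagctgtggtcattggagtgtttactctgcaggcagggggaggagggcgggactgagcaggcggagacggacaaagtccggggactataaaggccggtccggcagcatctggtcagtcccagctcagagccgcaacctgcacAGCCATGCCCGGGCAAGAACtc
The match had 2 mismatches in MDM2, 2 in FAS and 3 in GDF15, with 0 bases between the half-sites in each. In the GDF15 window it lies at bases 279 to 298, past the transcription start. Windows of ZMAT3 and FDXR, not shown, also held a match, so that 5 of the 8 members had 1 in at least 1 window. Among all genes on file, 15.3% had a match in at least 1 window, and 12.8% of the 35116 windows held one. The 8 members had 15 windows, whereas the 35116 windows belonged to 27305 genes, so a match in at least 1 window was easier for the members. Other windows of MDM2, FAS, ZMAT3 and FDXR held no match. The match describes the letters only, and the windows of TP53I3, TIGAR and BAX hold none by this rule.

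The values are log2 signals per probe set, so that a difference of 1 is a doubling. Array medians ran from 6.41 to 6.49. The 612 negative control probe sets had medians of 3.50 to 3.58 in the co-culture, 3.63 to 3.79 in the HER2 L755S line and 3.39 to 3.57 in the PIK3CA E545K line, and the 8 spiked control probe sets had medians of 9.30 to 9.56, 9.78 to 10.09 and 9.18 to 9.54 in the same groups. Both kinds of control thus ran somewhat higher on the HER2 L755S arrays, and their part in the results was not tested. All 5 basal and all 4 general epithelial markers with a named probe set exceeded the 95th percentile of the negative controls on all 12 arrays, KRT5 and CDH1 among them. The 5 endothelial markers did not exceed it on any array. Of the leukocyte markers, PTPRC, CD3E and LYZ did not exceed it on any array, but CD68 and CD14 did on 8 arrays each. CD14 had means of 7.78 in the co-culture, 5.39 in the HER2 L755S line and 7.51 in the PIK3CA E545K line. CD68 had 7.21, 5.23 and 7.39. The leukocyte and fibroblast markers differed between the lines, and their part in the results was not tested. The mean log2 signal of the 5 leukocyte markers was 5.24 to 5.54 in the co-culture, 4.45 to 4.79 in the HER2 L755S line and 5.23 to 5.47 in the PIK3CA E545K line. For the 6 fibroblast markers it was 5.56 to 5.73, 6.03 to 6.31 and 5.35 to 5.53. PDGFRB, LUM and THY1 did not exceed the 95th percentile of the negative controls on any array, whereas COL1A1 did on 5 and COL1A2 and DCN on all 12. DCN had means of 8.03 in the co-culture, 10.70 in the HER2 L755S line and 7.07 in the PIK3CA E545K line.

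In the HER2 L755S line, all 9 measured p53 targets were lower than in the PIK3CA E545K line. GDF15 differed most, followed by TP53I3, TIGAR, FAS and MDM2, whereas BAX and ZMAT3 differed by less than 0.5 on the log2 scale. MDM4, the partner of MDM2 that also restrains p53, went the other way. A member was called when the Benjamini-Hochberg adjusted p of limma, fitted over all genes, was under 0.05. By this rule 9 of 9 members were lower, where 59.5% of all genes were called, 29.5% lower and 30% higher. The arrays of the lines did not overlap for 7 of the 9, all below, against 26.6% of all genes. The median difference over the members was -0.89, against 0.05 over all genes.

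MDM2, the ubiquitin ligase that marks p53 for degradation, had log2 signals of 11.76, 11.85, 11.87 and 11.75 on the HER2 L755S arrays, against 12.91, 12.66, 12.61 and 12.60 on the PIK3CA E545K arrays. The arrays of the lines did not overlap. It differed by -0.89 ± 0.09 on the log2 scale, or 1.85-fold lower (SE, limma adjusted p = 1.77e-08). CDKN1A, the cyclin-dependent kinase inhibitor p21 and the best known p53 target, had 12.77, 13.21, 13.18 and 13.46 in the HER2 L755S line, against 14.16, 14.05, 14.31 and 14.17 in the PIK3CA E545K line. It was lower by a similar amount, at -1.02 ± 0.11 (SE, limma adjusted p = 1.99e-08), without overlap. MDM4 had 10.74, 11.28, 11.02 and 10.41 in the HER2 L755S line, against 8.86, 8.96, 8.70 and 8.99 in the PIK3CA E545K line. Every HER2 L755S array stood above every PIK3CA E545K array, and the difference was 1.98 ± 0.15 (SE, limma adjusted p = 1.02e-10). PPM1D, a phosphatase that switches the p53 response off and is itself a target, was higher by 0.36 ± 0.13 (SE, limma adjusted p = 0.0173), with overlapping arrays and a call that was lost without HER2 L755S replicate 4 (0.0608).

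Of the members with a role in metabolism and nucleotide supply, TP53I3 and TIGAR were among the most different. TP53I3, a quinone oxidoreductase linked to reactive oxygen, had 9.42, 9.78, 9.74 and 9.69 in the HER2 L755S line, against 11.82, 11.74, 11.83 and 11.89 in the PIK3CA E545K line. The lines were more than 1 log2 unit apart on every array, and the difference was -2.16 ± 0.10 (SE, limma adjusted p = 1.13e-14), or 4.47-fold lower. TIGAR, which lowers glycolytic flux by dephosphorylating fructose-2,6-bisphosphate, had 9.50, 9.44, 9.95 and 9.20 in the HER2 L755S line, against 11.46, 11.23, 11.43 and 11.47 in the PIK3CA E545K line. It was 3.67-fold lower, at -1.87 ± 0.13 (SE, limma adjusted p = 1.06e-11), and the HER2 L755S arrays spread more than the others. RRM2B, the p53-induced small subunit of ribonucleotide reductase, had 11.68, 11.45, 11.70 and 12.05 in the HER2 L755S line, against 12.25, 12.19, 12.25 and 12.26 in the PIK3CA E545K line. The arrays did not overlap, although HER2 L755S replicate 4 came close, and the difference was -0.51 ± 0.10 (SE, limma adjusted p = 0.000124).

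Among the members that promote cell death, the 2 death receptors differed more than BAX. FAS, the receptor for FAS ligand, had 9.52, 9.59, 9.10 and 9.09 in the HER2 L755S line, against 10.34, 10.41, 10.68 and 10.33 in the PIK3CA E545K line. It was 2.17-fold lower without overlap, at -1.12 ± 0.13 (SE, limma adjusted p = 6.12e-08). TNFRSF10B, the TRAIL receptor DR5, had 11.38, 11.45, 11.63 and 11.29 in the HER2 L755S line, against 12.19, 12.07, 12.09 and 12.15 in the PIK3CA E545K line. The difference was -0.69 ± 0.09 (SE, limma adjusted p = 6.19e-07), again without overlap. BAX, which permeabilises the outer mitochondrial membrane, had 10.86, 11.09, 11.10 and 11.41 in the HER2 L755S line, against 11.59, 11.28, 11.60 and 11.71 in the PIK3CA E545K line. HER2 L755S replicate 4 lay above PIK3CA E545K replicate 2, so the groups overlapped, and the difference was -0.43 ± 0.11 (SE, limma adjusted p = 0.00202).

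GDF15, a secreted stress cytokine of the TGF-beta superfamily, had 6.97, 6.10, 6.56 and 6.51 in the HER2 L755S line, against 9.63, 9.68, 9.98 and 9.76 in the PIK3CA E545K line. The fitted difference was -3.23 ± 0.15 (SE, limma adjusted p = 1.89e-14). The HER2 L755S signal did not exceed the 95th percentile of the negative controls on any of its 4 arrays. Set against that level, GDF15 was at least 6.96-fold lower in the HER2 L755S line, in means of 6.53 and 9.76. ZMAT3, an RNA-binding zinc finger protein, had 11.17, 11.14, 11.35 and 11.05 in the HER2 L755S line, against 11.49, 11.32, 11.53 and 11.56 in the PIK3CA E545K line. This smallest difference among the members, -0.30 ± 0.10 (SE, limma adjusted p = 0.0128), came with overlapping arrays and was no longer called after quantile normalization (0.0676). The other 8 members were lower by the test after quantile normalization and after centring each array on its median. When the difference had to exceed 0.5 log2 units by the test, 5 of the 9 members were called, those being GDF15, TP53I3, TIGAR, FAS and MDM2.

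**Figure D1:**
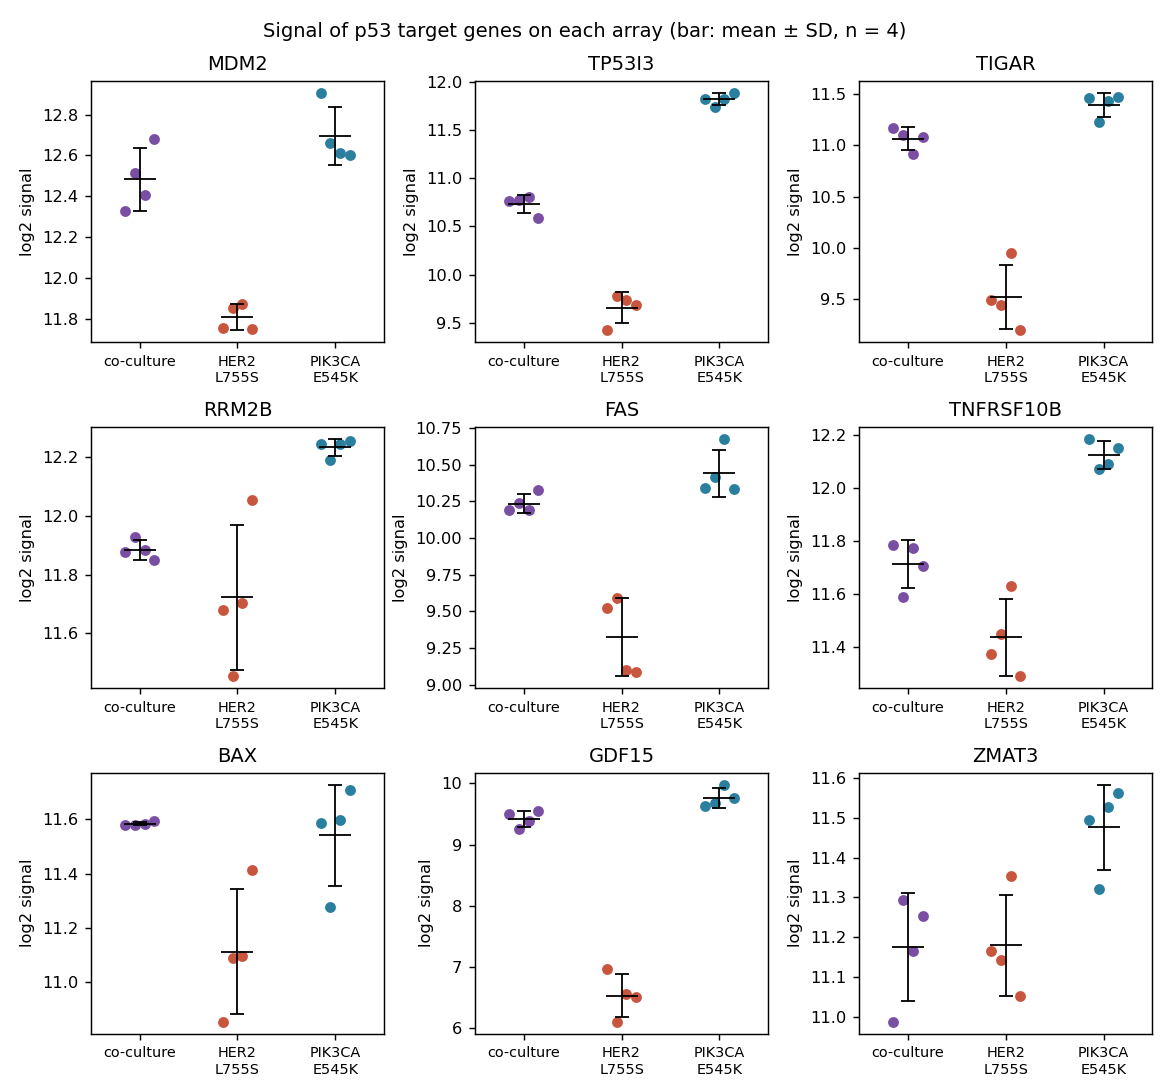
Log2 signal of the 9 measured p53 targets (vertical axes, each with its own range) on the 4 arrays of the co-culture, the HER2 L755S line and the PIK3CA E545K line, in that order from left to right. Points are arrays, and bars give the mean ± SD (n = 4). The HER2 L755S line has the lowest mean in 8 panels, GDF15 at 6.53, and only in ZMAT3 are the co-culture and the HER2 L755S line level, at 11.18 each.

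The wider set of p53 targets held calls in both directions. A list of 53 other targets held 45 genes in the test. In the HER2 L755S line 20 of the 45 were lower and 14 higher than in the PIK3CA E545K line, where 29.5% of all genes were lower and 30% higher, with a median difference of -0.31. The list was written with earlier results of these data known.

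Of 11 genes of the cell death list in the test, 5 were lower, 1 was higher and 5 did not pass in the HER2 L755S line. Over all genes, 29.5% were lower and 30% higher. TNFRSF10D, a TRAIL decoy receptor, differed by -1.84, AEN, an apoptosis-enhancing nuclease, by -1.55, BCL2L1, which encodes the survival protein BCL-XL, by -1.46, and TNFRSF10A, the TRAIL receptor DR4, by -1.36. PERP, a membrane protein that also maintains desmosomes, was higher by 0.93. EDA2R, another receptor of the TNF receptor family, differed by -0.22 (limma adjusted p = 0.245). BBC3, which encodes PUMA, and TNFRSF10C had no named probe set, and PMAIP1, which encodes NOXA, stood below the 95th percentile of the negative controls on every array of both lines.

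Of 5 DNA repair targets, 3 were lower and 1 was higher, where 29.5% of all genes were lower and 30% higher. PCNA, the sliding clamp of replication, differed by -2.08, FBXO22, an F-box protein, by -0.61 and DDB2, a damage sensor of nucleotide excision repair, by -0.61, whereas XPC, which also recognises helix-distorting damage, was higher by 0.60. PCNA is also a replication gene. Of 15 targets in metabolism and other roles, 8 were lower and 3 higher, beside the same 29.5% and 30% of all genes. Among the 8, FUCA1 was no brighter than the negative controls in either line. Its means were 4.17 in the HER2 L755S line and 4.97 in the PIK3CA E545K line. ABCA12, a lipid transporter, differed by -3.81, SAT1, which acetylates polyamines, by -1.11 and ASCC3, a helicase, by -0.95. KITLG, the KIT ligand, was at least 1.05-fold lower, since its HER2 L755S signal was no brighter than the negative controls. CYFIP2, DRAM1 and TRIM22 were higher by 0.83, 0.74 and 0.57.

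Of 14 targets of the arrest and growth list in the test, 9 were higher and 4 lower in the HER2 L755S line. Over all genes, 30% were higher and 29.5% lower. PLK2, a stress-responsive polo-like kinase, was higher by 2.00, SUSD6 by 1.76, PRDM1, the transcriptional repressor BLIMP1, by 1.72 and TP53INP1, which promotes autophagy and death, by 1.67. Besides CDKN1A, the lower ones were SFN, the 14-3-3 sigma protein, at -0.73, CCNG1, cyclin G1, at -0.56 and PLK3, which was at least 1.36-fold lower against the negative controls. Among 16 regulators of p53 in the test, 7 were higher and 2 lower, beside the same 30% and 29.5% of all genes. PPM1D is on both lists and is counted among the 9 and among the 7. Besides MDM4, the higher regulators with the largest differences were CREBBP, ATM and KAT5. CREBBP, an acetyltransferase that co-activates p53, was higher by 1.04, ATM, the kinase that signals double-strand breaks, by 0.96 and KAT5, another acetyltransferase, by 0.65. CHEK1, the checkpoint kinase, differed by -1.91. CHEK2 differed by -0.65, with a HER2 L755S signal no brighter than the negative controls.

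**Figure D2:**
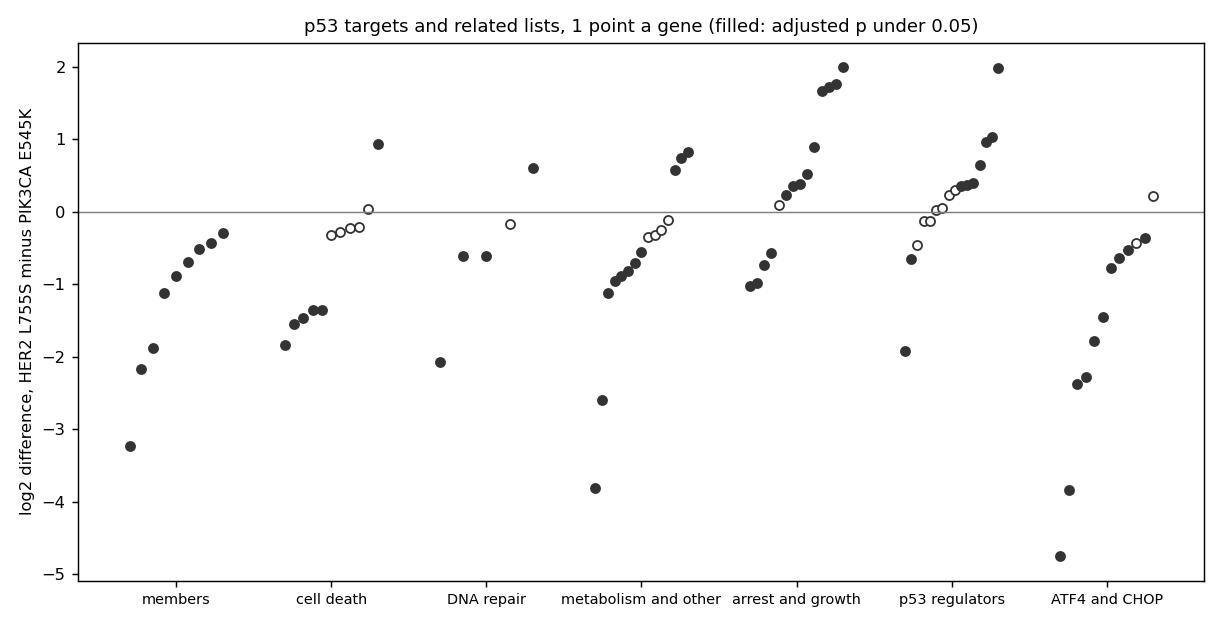
Log2 difference between the HER2 L755S line and the PIK3CA E545K line (vertical axis, HER2 minus PIK3CA) for each gene in the test, by list (horizontal axis, genes sorted by value within a list). Filled points had a limma adjusted p under 0.05. All 9 members lie below 0, while 9 of the 14 arrest and growth targets are filled points above 0.

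The list of 12 ATF4 and CHOP targets includes ATF4 itself and DDIT3, the gene of CHOP. Of the 12, 10 were lower and 0 higher in the HER2 L755S line, where 29.5% of all genes were lower and 30% higher. The median was -1.11, against 0.05 over all genes. Among the 10, VLDLR was no brighter than the negative controls in either line. DDIT3 was not among the 10 (-0.43, limma adjusted p = 0.0835), and it too was no brighter than the negative controls in either line. TRIB3, a pseudokinase, was at least 11.4-fold lower and SLC7A11, the cystine transporter, at least 9.18-fold lower, each with a HER2 L755S signal no brighter than the negative controls. DDIT4, an inhibitor of mTORC1, differed by -2.37 and ASNS, asparagine synthetase, by -2.27. The part of this response in the levels of GDF15 and TNFRSF10B was not tested.

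The genes whose pattern over the 12 arrays was closest were read for MDM2, GDF15 and TP53I3, and the 3 closest to each were on none of these lists. Closeness was the root mean square difference of log2 signals after centring each gene on its mean. For MDM2 they were LIPA (0.09), PREP (0.10) and SGTA (0.10). For GDF15 they were ACSL4 (0.16), FEN1 (0.17) and MVD (0.18). For TP53I3 they were DPY19L1 (0.09), C11orf24 (0.13) and BRIX1 (0.13).

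The co-culture against the HER2 L755S line asked how the mixture differed from the line that supplied most of its cells. In the co-culture, 7 of 9 members were higher and 0 lower, where 51% of all genes were called, 24.9% higher and 26% lower. In a mixed culture, more cells of a line and more RNA per cell cannot be told apart. GDF15 was at least 5.50-fold higher, with 9.50, 9.26, 9.38 and 9.55 on the co-culture arrays, against 6.53 ± 0.35 in the HER2 L755S line (SD, n = 4). Its fitted difference was 2.89 ± 0.15 (SE, limma adjusted p = 2.72e-13). TIGAR, with 11.17, 11.10, 10.91 and 11.08 in the co-culture, was higher by 1.55 ± 0.13 (SE, limma adjusted p = 5.42e-10). TP53I3, with 10.77, 10.77, 10.80 and 10.59, was higher by 1.08 ± 0.10 (SE, limma adjusted p = 4.95e-09). These 3 genes stood above every HER2 L755S array.

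FAS, with 10.19, 10.24, 10.19 and 10.32 in the co-culture, was higher by 0.91 ± 0.13 (SE, limma adjusted p = 2.07e-06). MDM2, with 12.33, 12.52, 12.41 and 12.68, was higher by 0.68 ± 0.09 (SE, limma adjusted p = 1.84e-06). BAX was nearly the same on the 4 co-culture arrays, at 11.58, 11.58, 11.58 and 11.59, and was higher by 0.47 ± 0.11 (SE, limma adjusted p = 0.00111). FAS, MDM2 and BAX too lay above all HER2 L755S arrays, which makes 6 of 9 members without overlap, against 22.1% of all genes. TNFRSF10B, with 11.79, 11.59, 11.77 and 11.71, was higher by 0.28 ± 0.09 (SE, limma adjusted p = 0.0131), with overlap and a call that was lost after quantile normalization (0.0716). RRM2B had 11.88, 11.93, 11.88 and 11.85 and differed by 0.16 ± 0.10 (SE, limma adjusted p = 0.19). Without HER2 L755S replicate 4, its bright array, RRM2B passed (0.27, limma adjusted p = 0.0133). ZMAT3 had 10.99, 11.29, 11.17 and 11.25 and differed by 0.00 on the log2 scale, with a 95% interval of -0.21 to 0.20. CDKN1A was higher by 0.96 ± 0.11 (SE, limma adjusted p = 7.58e-08), and MDM4 differed by -1.15 ± 0.15 (SE, limma adjusted p = 1.09e-06).

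Against the HER2 L755S line, the co-culture had 21 of the 45 other targets higher and 8 lower, where 24.9% of all genes were higher and 26% lower. From the cell death list, TNFRSF10D was higher by 1.17, AEN by 1.01 and APAF1, the scaffold of the apoptosome, by 0.83, while PERP differed by -0.68. From the arrest list, CCNG1 was higher by 0.73, PLK3 was at least 1.54-fold higher, and PRDM1, SUSD6 and TP53INP1 differed by -2.61, -1.63 and -0.94. PCNA was higher by 1.94 and ABCA12 by 3.01. Of the 12 ATF4 and CHOP targets, 11 were higher and 1 lower. Among the 11, DDIT3 and VLDLR were no brighter than the negative controls in either culture. TRIB3 was at least 10.9-fold and SLC7A11 at least 12.2-fold higher, and ASNS was higher by 2.51.

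The co-culture against the PIK3CA E545K line gave smaller differences. In the co-culture 4 of 9 members were lower and 0 higher, where 25.7% of all genes were called, 14.6% lower and 11.1% higher. TP53I3 had the largest of these differences, with 10.77, 10.77, 10.80 and 10.59 in the co-culture, against 11.82 ± 0.06 in the PIK3CA E545K line (SD, n = 4). It differed by -1.08 ± 0.10 (SE, limma adjusted p = 3.66e-08) and was the 1 member past the tested margin of 0.5. TNFRSF10B differed by -0.41 ± 0.09 (SE, limma adjusted p = 0.00146), RRM2B by -0.35 ± 0.10 (0.0119) and ZMAT3 by -0.30 ± 0.10 (0.0274). The ZMAT3 call was lost without any 1 of PIK3CA E545K replicates 1, 3 and 4 or co-culture replicates 1 and 3, with limma adjusted p of 0.0598 to 0.0973.

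GDF15, TIGAR, MDM2, FAS and BAX did not pass against the PIK3CA E545K line. GDF15 differed by -0.34, with a 95% interval of -0.66 to -0.02 (limma adjusted p = 0.118), TIGAR by -0.33, from -0.59 to -0.07 (0.0611), and MDM2 by -0.21, from -0.40 to -0.02 (0.0995). FAS differed by -0.21, from -0.47 to 0.05 (0.258), and BAX by 0.04, from -0.19 to 0.27 (0.84). The arrays of GDF15, TIGAR and FAS in the co-culture all lay below those of the PIK3CA E545K line. In all, 7 of 9 members did so, against 16.5% of all genes. The 16.5% is over all genes, whereas all 9 members were lower in the HER2 L755S line than in the PIK3CA E545K line. TIGAR passed under 6 of its 22 alternatives, among them without PIK3CA E545K replicate 2 (0.0469), without HER2 L755S replicate 3 (0.0227) or 4 (0.0321). MDM2 passed without co-culture replicate 4 (0.0382), and GDF15 passed when only the 2 groups compared were fitted (0.0287). CDKN1A differed by -0.05 (limma adjusted p = 0.787) and MDM4 was higher by 0.83 ± 0.15 (SE, limma adjusted p = 0.000257).

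Against the PIK3CA E545K line, the co-culture had 9 of these 45 targets higher and 12 lower, where 11.1% of all genes were higher and 14.6% lower. PLK2 was higher by 1.58, CYFIP2 by 1.36 and GADD45A, a growth arrest and repair factor, by 0.82. PRDM1 differed by -0.90, ABCA12 by -0.80 and BCL2L1 by -0.77. The decoy and death receptor genes TNFRSF10D and TNFRSF10A differed by -0.67 and -0.61. Of the 12 ATF4 and CHOP targets, 4 were higher and 1 lower, with a median of 0.20, where 0 of 9 members were higher. Among the 4, DDIT3 was no brighter than the negative controls in either culture.

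**Figure D3:**
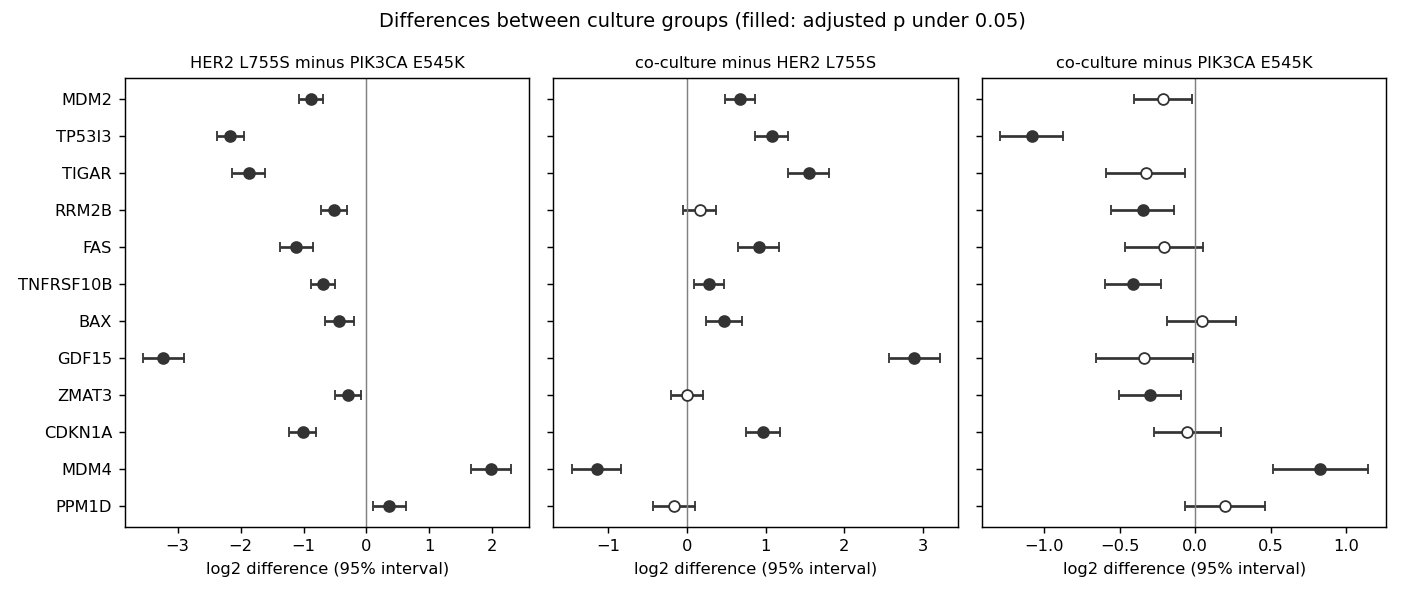
Log2 difference (horizontal axes, with 95% intervals) of the 9 measured members and of CDKN1A, MDM4 and PPM1D in the 3 comparisons between culture groups. Filled points had a limma adjusted p under 0.05. Between the lines all members lie below 0, and TP53I3, at -1.08, stands furthest from 0 among the members in the co-culture against the PIK3CA E545K line.

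The co-culture was also set against the level expected from 75% HER2 L755S and 25% PIK3CA E545K signal on the linear scale, which asks whether the members followed the cell shares in the labels. Above this blend were 5 of 9 members and below it 0, where 40.8% of all genes were called, 18.5% above and 22.3% below. GDF15 was above by 1.26 ± 0.14 (SE, limma adjusted p = 1.89e-07), TIGAR by 0.81 ± 0.11 (3.19e-06), FAS by 0.54 ± 0.11 (0.000372), MDM2 by 0.40 ± 0.08 (0.000398) and BAX by 0.35 ± 0.10 (0.00646). TP53I3 differed from the blend by 0.18, with a 95% interval of -0.01 to 0.36 (limma adjusted p = 0.12). TNFRSF10B differed by 0.07 (0.509), RRM2B by 0.02 (0.911) and ZMAT3 by -0.08 (0.485). CDKN1A was above the blend by 0.64 ± 0.09 (SE, limma adjusted p = 8.27e-06) and MDM4 differed by -0.85 ± 0.15 (6.09e-05). These calls depend on the share: for a blend of 50% HER2 L755S signal, GDF15 and TIGAR were above and TP53I3 was below, at -0.38 (limma adjusted p = 0.00424), and the calls of FAS, MDM2 and BAX were lost. For a blend of 25% HER2 L755S signal, 0 members were above. GDF15 then differed by 0.0255 (limma adjusted p = 0.941) and TIGAR by -0.0397 (0.879), and the 2 members called, TP53I3 and TNFRSF10B, were below, at -0.77 and -0.27. The RNA content of a cell in either line was not analysed here, so the share of cells need not be the share of RNA.

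The position of each member in the co-culture was also expressed in percent on the linear scale, with 0% at the mean of the HER2 L755S line and 100% at that of the PIK3CA E545K line. GDF15 stood at 76.8% ± 7.8, FAS at 75.3% ± 7.2, TIGAR at 72.2% ± 8.1 and MDM2 at 71.0% ± 20.4 (SD over 4 co-culture arrays). TNFRSF10B stood at 34.9% ± 12.2, TP53I3 at 32.0% ± 3.9 and RRM2B at 27.9% ± 6.1, so that these 3 genes lay at similar positions near the 25% of the blend. BAX stood at 111.4% ± 1.8 and ZMAT3 at 0.2% ± 40.2, and for both the lines differed by less than 0.5 on the log2 scale. The SD leaves out the spread within the lines. The median over all 3759 genes lower in the HER2 L755S line was 58.7%, with quartiles of 38.0% and 83.4%.

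**Figure D4:**
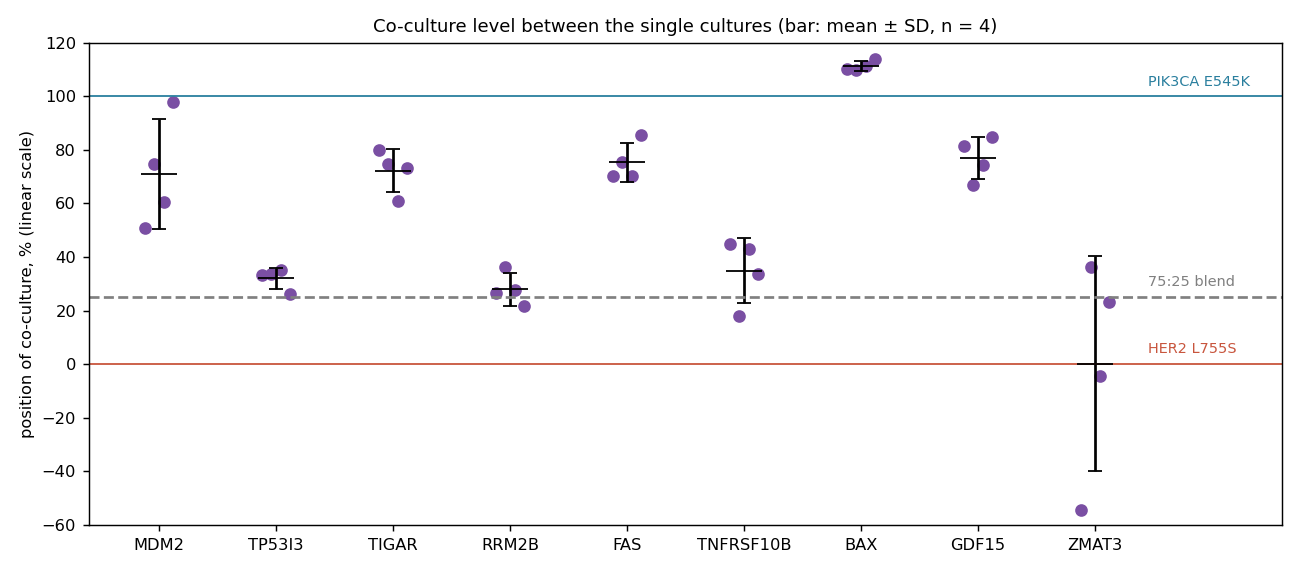
Linear-scale position of the co-culture between the lines (vertical axis, in percent, with the HER2 L755S line at 0 and the PIK3CA E545K line at 100) for the 9 measured members. Points are the 4 co-culture arrays, bars the mean ± SD, and the dashed line marks the 75:25 blend. TNFRSF10B, TP53I3 and RRM2B average 27.9% to 34.9%, and GDF15, FAS, TIGAR and MDM2 average 71.0% to 76.8%.

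TP53I3 and TNFRSF10B were called both higher than in the HER2 L755S line and lower than in the PIK3CA E545K line, which makes 2 of 9 members, against 8.87% of all genes. This pattern requires a lower mean in the HER2 L755S line, which all 9 members had. It held for 1132 genes, beside 3759 genes called lower in that line. The co-culture arrays of GDF15, TP53I3, FAS and TIGAR lay between those of the lines without overlap, 4 of 9 members, against 13.8% of all genes. That share counts both directions and can include only genes whose arrays did not overlap between the lines, as for 7 of the 9 members. No member passed a test of lying outside both lines. The test took the larger limma p of both comparisons where both differences had the same sign, and 1 otherwise, adjusted over all genes. Of 9 members, 0 were called above both or below both lines, where 1.85% of all genes were called, 1% above and 0.847% below. The adjusted p was 1 for each member. Only BAX and ZMAT3 had differences of the same sign, so the test could not call any other member. Among the 45 other targets 2 passed. CYFIP2 was above both lines, by 0.54 against the nearer line (limma adjusted p = 0.0234) and PRDM1 was below both, by -0.90 against the nearer line (0.0135). Of the regulators, HIPK2, a kinase that phosphorylates p53, was below both, by -0.47 against the nearer line (limma adjusted p = 0.00116).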

How the data were processed

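The authors deposited log2 signals for each probe set. The submitters' processing notes name the Transcriptome Analysis Console as the software. Neither a version nor a method of background correction or normalization is given in the sources used here, and no genome build for the probe sets is named. Per the labels' protocols, labelling started from 5 µg of RNA. The values were used as they stand.

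Probe sets were named through the annotation of the series (17709 of 24351). For 20 genes with several, the brightest was used. A gene was kept if its signal exceeded the 30th percentile of named probe sets on at least 4 arrays. All 12 arrays entered 1 linear model of the 3 groups in limma 3.58.1 (R 4.3.3), with a trend of the spread, two-sided tests and Benjamini-Hochberg adjustment over 12758 genes. The standard error against the blend used delta-method weights. The code was tested on simulated data. A group was called no brighter than the negative controls when none of its arrays exceeded their 95th percentile there, which then replaced dimmer values in the "at least" folds.

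The members, lists and comparisons were chosen with earlier results of these data known. All 9 measured members are described. From each list, up to 4 called genes in each direction with the largest difference between the lines were named, and up to 3 for the co-culture, together with CDKN1A, MDM4 and PPM1D. Fewer co-culture genes are printed than this rule allows, and HIPK2, BBC3, PMAIP1, FUCA1, VLDLR and DDIT3 were named after their values were seen. EDA2R and TNFRSF10C were also named outside this rule. Alternatives were other filters, scalings, spread estimates, probe set choices, blends, a margin, a replicate block and leaving out each array. Precision is limited by having 4 arrays in a group.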

Additional observations from a re-analysis of the deposited data

Results flagged for a closer look

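Of 36 groups of 4 arrays (9 members, CDKN1A, MDM4 and PPM1D in 3 cultures), 2 held an array far from its group by Dixon's criterion, which marks about 1 in 20 groups by chance. Both were replicate 2 of the PIK3CA E545K line. RRM2B had 12.19 there, against 12.25 to 12.26 on the other arrays. TIGAR had 11.23 there, against 11.43 to 11.47. The RRM2B gap is small in absolute terms, since the other 3 arrays were nearly level. Neither gene changed its call between the lines when this array was left out.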

How the results depend on the processing

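Most alternatives kept direction and call. Of 1068 recomputed single-gene values, 1013 kept both, 28 lost the call, 10 gained it and 17 changed sign, and of 327 recomputed counts 305 stayed within 1.5 times. Some of these alternatives could not change a difference, so the 1013 overstate how far direction was tested. Between 2 groups, leaving out an array of the remaining group left the difference the same. So did averaging probe sets, since each of these genes has 1. A tested margin of 0.5 left 5 members, 21 other targets and 3524 genes called between the lines, 4, 15 and 2269 for the co-culture against HER2 L755S, and 1, 2 and 439 for the co-culture against PIK3CA E545K. Against a 50% blend, 3 members, 16 other targets and 3167 genes were called, and against a 25% blend 2 members and 2312 genes. At 50%, TP53I3 turned to -0.38, TNFRSF10B to -0.11, RRM2B to -0.12 and PPM1D to 0.0048. At 25%, MDM2 turned to -0.0367, TP53I3 to -0.77, TNFRSF10B to -0.27, RRM2B to -0.24, TIGAR to -0.0397, MDM4 to 0.033 and PPM1D to 0.10. GDF15 (0.0255), FAS (0.0017), BAX (0.14) and CDKN1A (0.14) kept their sign there and lost the call. On a log2-scale blend TP53I3 gained the call, at 0.54. RRM2B against the 75% blend also turned with median centring (-0.0042), with quantile normalization (-0.0284) and without HER2 L755S replicate 2 (-0.0454), within a range of -0.0454 to 0.0898 over the arrays left out. ZMAT3 against the HER2 L755S line turned to 0.0543 without HER2 L755S replicate 3 and to 0.0585 without co-culture replicate 1, within -0.0461 to 0.0585, and BAX against the PIK3CA E545K line to -0.047 without PIK3CA E545K replicate 2, within -0.047 to 0.0975. Outside both lines, a spread without trend left 0 other targets and 146 genes, and leaving out 1 array gave 0 to 2 other targets and 154 to 231 genes, the lowest of each without co-culture replicate 3. Leaving out 1 array gave 3 to 5 members called for the co-culture against PIK3CA E545K. The causes were not tested. Samples of the same replicate number did not deviate together (correlations of -0.03 to 0.06 over 12 pairs), and with the number as a block 9, 7, 4 and 5 members were called in the 4 comparisons, as without it.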
